A study of Mus musculus with 2 samples.

Results

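Hspa5, Sdf2l1, Dnajb9, Herpud1, Xbp1, Atf4, Ddit3, Trib3 and Chac1 are genes of the response to stress in the endoplasmic reticulum (ER) and of its ATF4 branch. They were taken by symbol from the gene list of both deposited libraries, in which all 9 were present among 27998 genes. Their unique molecular identifiers (UMIs, each standing for 1 captured transcript) were summed over the cells of a class and expressed per 1000000 UMIs of that class (CPM).

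The libraries came from lung organoids of alveolar type 2 (AT2) cells from C57BL/6 mice carrying SPC-CreERT2;R26R-tdTomato, which is activated by tamoxifen and marks surfactant protein C-positive cells, grown with cultured lung stromal cells depleted of CD31+, EpCAM+ and CD45+ cells. Control organoids received PBS and IL-1β organoids received the cytokine interleukin-1β. The culture is described as 2 weeks long in the series' design and as ending on day 21 in the figure legend, and the IL-1β concentration as 10 ng/mL in the legend and 20 ng/mL in the methods. Mice were 6 to 10 weeks old for most experiments, and neither the number of mice nor a sex is given for these cultures. Each condition was 1 library of organoid cells, so no test between conditions was possible. A gene was counted as higher or lower in a class when its level in the IL-1β library was at least 1.5 times the control level or at most the inverse of that, with at least 100 UMIs over both libraries. The intervals given are exact 95% intervals for counting error only, and contain no variation between cultures and no added variation between cells.

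Unfolded proteins in the ER are sensed by IRE1, PERK and ATF6. IRE1 splices the Xbp1 transcript, PERK phosphorylates eIF2α and thereby raises translation of ATF4, and ATF6 and spliced XBP1 switch on chaperone and degradation genes. ATF4 is also the shared output of the kinases that sense amino acid shortage, heme shortage and viral RNA, so its targets form what is called the integrated stress response. AT2 cells fold and secrete large amounts of surfactant protein, and misfolding mutants of surfactant protein C are known to load this pathway. A count of transcript 3′ ends cannot show Xbp1 splicing, eIF2α phosphorylation or ATF4 translation, so the values below are transcript levels only.

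To show which regulatory letters lie beside the 9 genes, whether or not their levels differed, their RefSeq promoter windows were searched on both strands for 4 published elements. The windows (GRCm38.p6) ran from 250 bases before to 50 bases after the transcript start. The elements were the ER stress response element ERSE (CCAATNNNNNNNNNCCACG), ERSE-II (ATTGG and CCACG with any 1 base between them), the C/EBP-ATF element (TGATGNAA) and the core of the UPR element (TGACGTG). No match overlapped another. Of all 32851 windows, 0.119% held an ERSE, 0.0365% an ERSE-II, 3.97% a C/EBP-ATF element and 2.01% the UPR element core. Among the 9 genes, Hspa5 held an ERSE from base -65 to -47 and a UPR element core from -157 to -151. Herpud1 held an ERSE-II from -52 to -42 and a C/EBP-ATF element from -112 to -105. Chac1 held a C/EBP-ATF element from -193 to -186, and Trib3 held one after the start, from base 15 to 22. The windows of Atf4, Ddit3, Dnajb9, Sdf2l1 and Xbp1 held none of these exact letters. The windows of the 4 genes with matches are given 5′ to 3′ up to 30 bases after the start, with the matched letters in capitals: Hspa5 at chr2:34771840-34772119 on the plus strand, Herpud1 at chr8:94386179-94386458 on the plus strand, Chac1 at chr2:119350992-119351271 on the plus strand and Trib3 at chr2:152344031-152344310 on the minus strand.
Hspa5: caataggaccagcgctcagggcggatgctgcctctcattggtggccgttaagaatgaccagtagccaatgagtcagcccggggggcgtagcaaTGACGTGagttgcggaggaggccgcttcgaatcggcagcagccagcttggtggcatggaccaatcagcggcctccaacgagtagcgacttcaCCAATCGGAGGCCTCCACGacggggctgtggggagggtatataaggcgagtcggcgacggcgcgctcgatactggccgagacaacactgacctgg
Herpud1: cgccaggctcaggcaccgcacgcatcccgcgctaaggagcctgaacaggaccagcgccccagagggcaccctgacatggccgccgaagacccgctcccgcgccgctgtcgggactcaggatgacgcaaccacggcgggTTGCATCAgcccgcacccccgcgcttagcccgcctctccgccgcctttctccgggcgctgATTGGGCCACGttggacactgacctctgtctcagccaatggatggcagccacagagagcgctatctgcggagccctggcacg
Chac1: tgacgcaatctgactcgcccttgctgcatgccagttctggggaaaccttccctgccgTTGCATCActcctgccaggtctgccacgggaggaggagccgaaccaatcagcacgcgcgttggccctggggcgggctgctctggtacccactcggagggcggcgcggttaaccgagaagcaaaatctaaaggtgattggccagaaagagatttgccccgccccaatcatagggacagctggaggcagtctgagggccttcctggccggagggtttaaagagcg
Trib3: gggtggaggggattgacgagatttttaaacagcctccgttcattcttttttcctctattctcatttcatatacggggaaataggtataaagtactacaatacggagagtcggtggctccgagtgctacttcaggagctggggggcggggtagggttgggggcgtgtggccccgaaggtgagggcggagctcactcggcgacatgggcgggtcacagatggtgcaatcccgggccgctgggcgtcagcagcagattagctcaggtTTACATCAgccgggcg
A match here is a description of the letters in the window and not a measured binding site.

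After filtering, 2083 control and 3059 IL-1β barcodes remained, with medians of 14613 and 11496.5 UMIs per barcode before filtering. In 10 of 12 epithelial clusters, with 98.6% of all epithelial cells, 1 library supplied 95% of the cells or more. Condition, library and cluster therefore cannot be told apart. The epithelial classes also depended on the clustering: over 11 settings the IL-1β library held 1157 to 1847 AT2-lineage and 265 to 1157 DATP-like cells, against 459 to 482 stromal cells. Classes were named from markers: AT2-lineage cells (949 control and 1789 IL-1β cells), damage-associated transient progenitor-like (DATP-like) cells (14 and 272) and stromal cells (796 and 475). The 12 AT2 markers summed to 140152 CPM in control and 109172 CPM in IL-1β AT2-lineage cells. In stromal cells they summed to 4980 and 6421 CPM. All 12 reached 10 CPM in stromal cells as well, so that count does not separate the classes. All 8 stromal markers reached 10 CPM in stromal cells. The cells scoring highest for alveolar type 1 (AT1) markers were cluster 6, with 266 control cells, and cluster 4, with 437 IL-1β cells. Cluster 4 also had the DATP markers Cldn4 and AW112010 among its leading genes, so these cells are called clusters 4 and 6 here, 269 control and 439 IL-1β cells in all. Cluster 4 scored 1.39 for AT1 and 1.21 for DATP markers. Cluster 5, with 271 of the 272 IL-1β DATP-like cells, scored 0.64 for DATP and 0.33 for AT2 markers. The 8 DATP markers summed to 3450 CPM in IL-1β DATP-like cells and 4804 CPM in IL-1β cells of clusters 4 and 6. The DATP-like name thus does not mark the IL-1β cells highest for these markers. The 2 libraries shared 11 barcodes.

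In AT2-lineage cells none of the 9 genes was counted as higher or lower after IL-1β. The members' log2 ratios ran from -0.39 to 0.16 with a median of -0.09, against a median of 0.11 over the 10276 genes counted in this class. Over all those genes, 14.8% were counted as higher and 6.99% as lower. Taking all epithelial cells together, 0 of the 9 genes were counted in either direction, against 12.6% of genes higher and 8.56% lower.

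Hspa5 encodes BiP, the main Hsp70 chaperone of the ER lumen and the regulator that holds the 3 sensors inactive. In AT2-lineage cells it stood at 347 CPM (337 to 356) in the control library and 296 (288 to 303) in the IL-1β library. The IL-1β level was 0.853 times the control level (0.822 to 0.886), so the intervals did not overlap but the difference was small. Dnajb9, a BiP co-chaperone also called ERdj4, had the lowest ratio of the members there, with 65.6 CPM in control and 50.1 in IL-1β cells (0.764 times, 0.699 to 0.836). Sdf2l1, another ER co-chaperone, was at 27.4 and 24.7 CPM. Herpud1, a membrane protein of ER-associated degradation, was at 130.0 and 122 CPM. For Sdf2l1 and Herpud1 the counting intervals of the libraries overlapped.

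The transcription factors of the response were also near their control levels in AT2-lineage cells. Xbp1 was at 93.8 CPM in control and 93.5 in IL-1β cells (0.997 times, 0.929 to 1.07), the closest to equality of the 9. Atf4 was at 136 and 129 CPM (0.952 times, 0.898 to 1.01). Ddit3, which encodes the pro-apoptotic factor CHOP, was at 42.0 and 37.2 CPM (0.887 times, 0.796 to 0.989). Trib3, a pseudokinase that ATF4 and CHOP induce and that feeds back on both, was at 17.3 and 19.3 CPM (1.12 times, 0.951 to 1.31). Chac1, a glutathione-degrading enzyme and a further ATF4 target, was at 3.23 and 3.21 CPM from 45 and 69 UMIs. When the libraries were clustered separately, which changed the cells in this class, Trib3 passed the 1.5-fold limit with a log2 ratio of 0.78.

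The IL-1β AT2-lineage cells fell into 3 clusters, numbered 1 to 3, in which all 9 genes stayed within 1.5-fold of the AT2-lineage control level except Chac1 in cluster 3, at 1.67 CPM beside 3.23. Atf4 was at 152 CPM in cluster 1, at 119 in cluster 3 and at 108 in cluster 2, beside 136 in AT2-lineage control cells. Xbp1 was at 111 in cluster 3, 98.2 in cluster 1 and 74.7 in cluster 2, beside 93.8 in those control cells. Cluster 2, led by the inflammatory genes Cxcl5, Cd14 and Cxcl10, was thus lowest of the 3 for both factors. Trib3 was at 22.7 in cluster 1, 17.4 in cluster 2 and 16.1 in cluster 3. Hspa5 was below the control level in each of the 3, at 278 in cluster 1, 317 in cluster 2 and 296 in cluster 3.

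**Figure D1:**
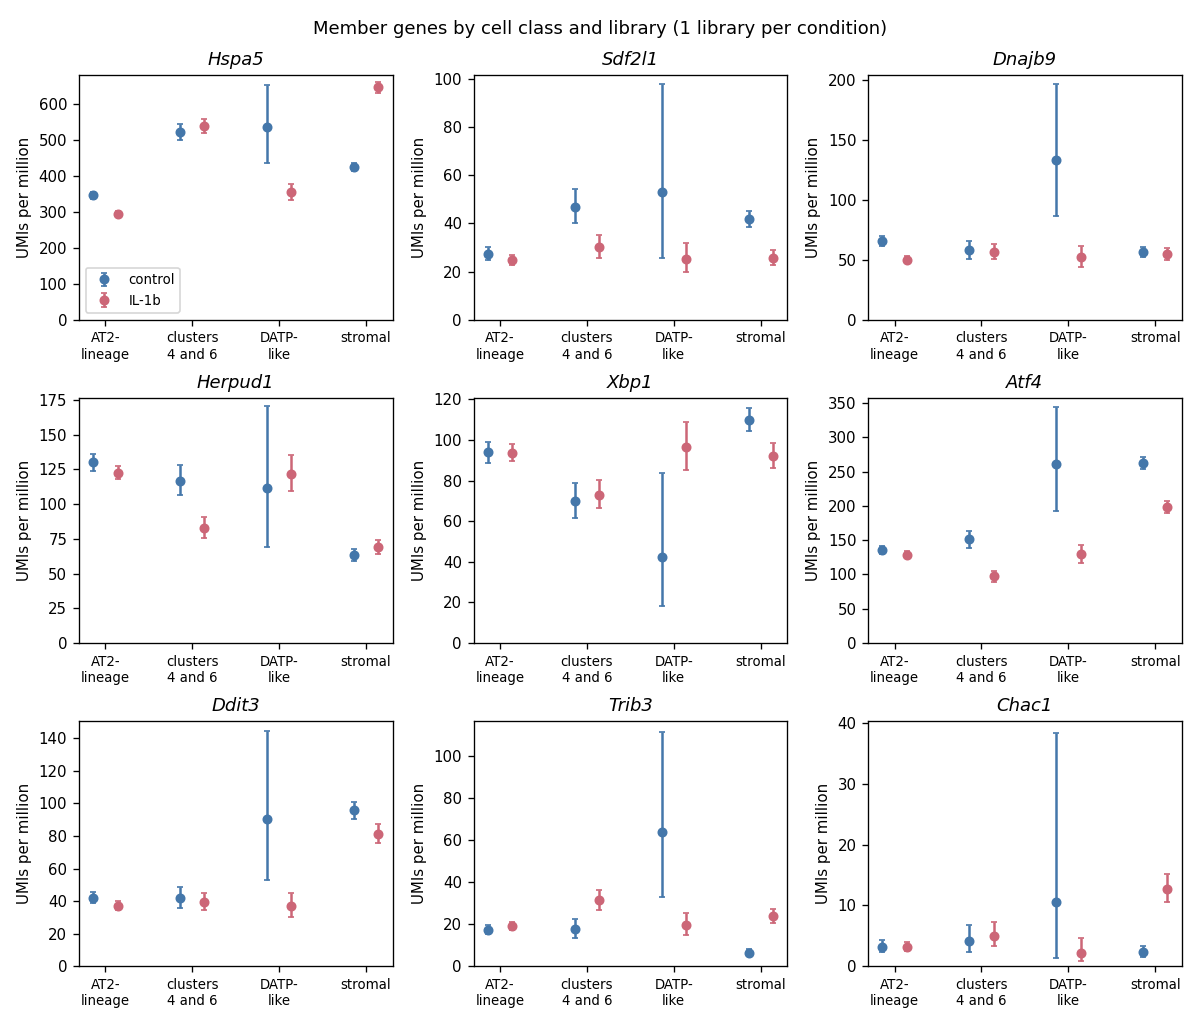
Level of each of the 9 genes in CPM (vertical axes, from 0) in AT2-lineage cells, clusters 4 and 6, DATP-like cells and stromal cells of the control library (blue) and the IL-1β library (red); bars are exact 95% Poisson intervals. The libraries lie close together in AT2-lineage cells, while in stromal cells Hspa5, Trib3 and Chac1 are higher in the IL-1β library and Sdf2l1 and Atf4 lower.

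The 9 genes also differed between classes of the same library. Hspa5 in the control library was lowest in AT2-lineage cells, at 347 CPM, followed by stromal cells at 426 and clusters 4 and 6 at 523, with no overlap of the intervals of these 3. In the IL-1β library the order was AT2-lineage cells at 296, DATP-like cells at 356, clusters 4 and 6 at 539 and stromal cells at 647, again with no overlap. Stromal cells had 2.28 times the Ddit3 level of AT2-lineage cells in the control library (2.07 to 2.52) and 2.19 times in the IL-1β library (1.98 to 2.42). Their Atf4 level was 1.93 times (1.83 to 2.05) and 1.54 times (1.45 to 1.63) that of AT2-lineage cells. Herpud1 had the opposite order, with 0.486 times and 0.563 times the AT2-lineage level in stromal cells. Trib3 changed place, from 0.376 times the AT2-lineage level in control stromal cells (0.291 to 0.482) to 1.23 times in IL-1β stromal cells (1.04 to 1.45).

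In clusters 4 and 6, of the 8 members with at least 100 UMIs, 1 was counted as higher in IL-1β cells (Trib3) and 2 as lower (Atf4 and Sdf2l1). Of the 8099 genes counted there, 9.74% were higher and 8.38% lower, with a median log2 ratio of 0.01. Trib3 was at 17.6 CPM (13.6 to 22.3) in control and 31.4 (27.0 to 36.3) in IL-1β cells, which is 1.79 times (1.34 to 2.40). Atf4, the gene of its inducer, was at 151 (139 to 164) in control and 97.2 (89.3 to 106) in IL-1β cells, which is 0.643 times (0.571 to 0.723). Transcripts of the factor and of this target thus lay in opposite directions in these clusters. Sdf2l1 was at 46.8 and 30.2 CPM (0.645 times, 0.521 to 0.799). Herpud1 was at 117 and 82.8 (0.708 times, 0.622 to 0.807), just inside the limit. Hspa5 was at 523 and 539 CPM, with overlapping intervals. At resolution 2.0 the Trib3 log2 ratio of these AT1-scoring cells was 0.37 and no longer passed the limit. Chac1, with 16 and 29 UMIs, was below the minimum.

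DATP-like cells could be compared only weakly, because the control library held 14 of them, all of cluster 10, while 271 of the 272 IL-1β cells were of cluster 5. The 12 AT2 markers summed to 88476 CPM in the IL-1β cells, beside 5852 in the control cells of this class. Among the 6 members that passed the minimum, 1 was counted as higher (Xbp1) and 4 as lower (Hspa5, Ddit3, Atf4 and Dnajb9), against 19.4% of genes higher and 27.5% lower. Hspa5 was just past the limit, at 0.663 times its control level (0.540 to 0.822). Xbp1 rested on 8 control UMIs, with 42.6 CPM (18.4 to 83.9) beside 96.6 (85.3 to 109) in IL-1β cells. Within the IL-1β library, where 272 DATP-like cells could be set against 1789 AT2-lineage cells, Hspa5 was at 356 CPM in DATP-like and 296 CPM in AT2-lineage cells, and the interval of their ratio was 1.13 to 1.29. The direction of the library comparison also depended on the clustering, since the log2 ratio of Hspa5 was -0.59 here but 0.086 under Louvain clustering and 0.35 with genes centered by library, and with libraries clustered separately 0 members were lower. In the IL-1β library the ratios of the other 8 members to AT2-lineage cells ran from 0.676 for Chac1 to 1.05 for Dnajb9, and all of their intervals contained 1.

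In stromal cells, which supported the organoids and were cultured in the same wells, 3 of the 9 members were counted as higher after IL-1β (Hspa5, Trib3 and Chac1) and 1 as lower (Sdf2l1). Of the 10059 genes counted in stromal cells, 6.15% were higher and 27.3% lower, and their median log2 ratio was -0.33. Chac1 was at 2.29 CPM (1.56 to 3.25) in control and 12.7 (10.5 to 15.2) in IL-1β stromal cells, from 31 and 120 UMIs, so it reached the minimum of 100 only through the library in which it was high. This was 5.54 times the control level (3.71 to 8.52), and 3.95 times the level in AT2-lineage cells of the same library (2.91 to 5.39). Trib3 was at 6.50 (5.21 to 8.01) and 23.8 (20.8 to 27.1) CPM, which is 3.66 times (2.85 to 4.74). Hspa5 was at 426 (415 to 437) and 647 (631 to 663) CPM, which is 1.52 times (1.46 to 1.57) and just past the limit.

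The other members did not follow these 3. Atf4 was at 262 CPM in control and 199 in IL-1β stromal cells (0.758 times, 0.716 to 0.802). Ddit3 was at 95.7 and 81.4 (0.851 times, 0.777 to 0.931), and Xbp1 at 110.0 and 92.2 (0.838 times, 0.770 to 0.912). Sdf2l1 was at 41.8 and 25.7 CPM (0.615 times, 0.527 to 0.716). Herpud1, at 63.2 and 69.0, and Dnajb9, at 56.3 and 54.8, had ratios whose intervals contained 1. Relative to the median ratio of all stromal genes, the log2 ratios were 2.80 for Chac1, 2.20 for Trib3 and 0.93 for Hspa5, while Sdf2l1, at -0.37, was no longer counted. On that scale Atf4 was at -0.07, Ddit3 at 0.09 and Xbp1 at 0.07.

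**Figure D2:**
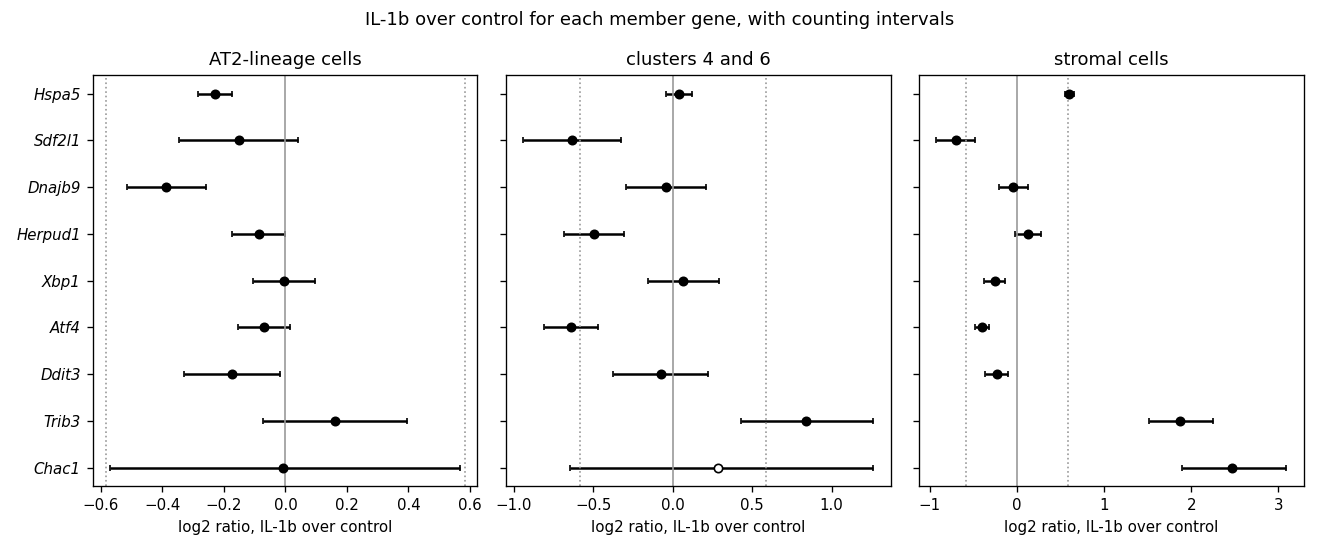
log2 ratio of the IL-1β over the control library for each of the 9 genes in AT2-lineage cells, clusters 4 and 6 and stromal cells; bars are exact 95% counting intervals, dotted lines mark 1.5-fold in either direction, and the open symbol is below the minimum of 100 UMIs (axes differ in range). All 9 points lie between the dotted lines in AT2-lineage cells, and Trib3 and Chac1 lie far outside them in stromal cells.

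The stromal clusters were numbered separately from the epithelial ones and were also nearly separate by library, so they were examined one by one. Chac1 was at most 5.15 CPM in the 8 control clusters with at least 9 cells. In the IL-1β library it was at 9.76 CPM in stromal cluster 1, 9.87 in stromal cluster 6, 12.6 in stromal cluster 2 and 37.0 in stromal cluster 5, which had 18 cells and 21 Chac1 UMIs. Trib3 was between 2.63 and 12.9 CPM in the control clusters. In the same 4 IL-1β clusters it was at 24.4, 20.3, 22.7 and 52.9. For both genes the levels of these 4 lay above the level of every control cluster, but several of their intervals overlapped that of the highest control cluster, stromal cluster 5 (2.47 to 9.48 for Chac1, 8.34 to 19.0 for Trib3). For Chac1 those of stromal clusters 1 (5.58 to 15.8) and 6 (lower limit 5.64) overlapped it, and for Trib3 those of stromal clusters 1 (17.4 to 33.2), 6 (14.0 to 28.6) and 2 (18.8 to 27.1). The exception was the IL-1β part of stromal cluster 9, 22 cells with epithelial markers among their leading genes, where Chac1 was at 2.80 from 1 UMI and Trib3 at 8.41 from 3.

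Hspa5 lay above its level in every control cluster only in IL-1β stromal clusters 1 and 6. It was highest in IL-1β stromal cluster 1, at 1041 CPM (992 to 1091), a cluster whose mitochondrial share was 17.0% and whose median depth was 7738.5 UMIs. IL-1β stromal cluster 6, at 685 CPM, had 11.7% mitochondrial UMIs. Over the 9 pairs of stromal cluster and library with at least 30 cells, Hspa5 and mitochondrial share had a rank correlation (Spearman) of 0.48. The level did not follow that share in every cluster. IL-1β stromal cluster 5, with only 18 cells and so outside that correlation, was at 654 CPM with 3.88%. Control stromal cluster 7 was at 463 CPM with 11.8%. The part of mitochondrial share in the Hspa5 level was not tested. IL-1β stromal cluster 2, the deepest with a median of 29233.5 UMIs and 2.70% mitochondrial, was at 522, between the control clusters, which ran from 108 in stromal cluster 10 to 659.8 in stromal cluster 8. Without the clusters above 10% mitochondrial UMIs in either library, Hspa5 was at 423 in control and 532 in IL-1β stromal cells (1.26 times) and was not counted as higher. Its log2 ratio was 0.33, beside a median of -0.39 over all genes in those cells. Of these genes, 4.93% were higher and 32.4% lower. The clusters left out were stromal clusters 1 and 6, with 182 and 83 IL-1β cells, and stromal cluster 7, with 77 control cells. Most IL-1β cells that remained, 168, were of stromal cluster 2. Without those clusters Chac1 was at 2.34 and 14.2 (6.07 times, 3.95 to 9.59) and Trib3 at 6.77 and 24.5 (3.62 times, 2.76 to 4.79). Atf4 went the other way and was lowest of the 5 IL-1β clusters in stromal cluster 1, at 130.5 CPM.

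**Figure D3:**
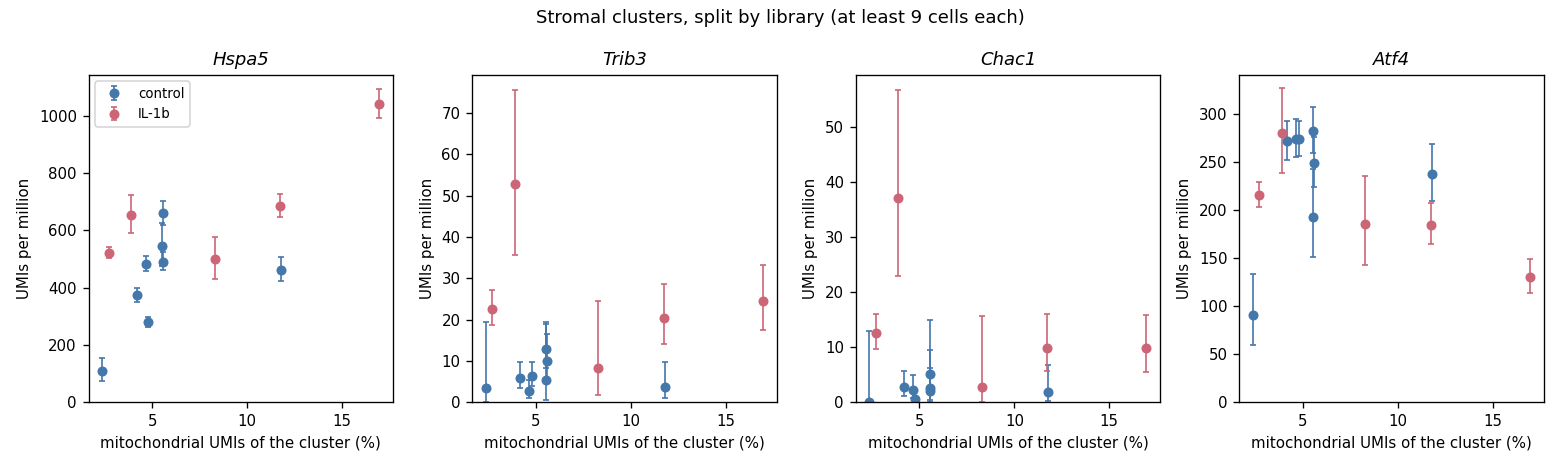
Level in CPM (vertical axes, from 0) of Hspa5, Trib3, Chac1 and Atf4 in each stromal cluster of the control (blue) and IL-1β (red) library with at least 9 cells, against the cluster's percentage of mitochondrial UMIs; bars are exact 95% Poisson intervals. For Trib3 and Chac1, 4 of 5 red points lie above all blue points at low and high mitochondrial shares, while the highest Hspa5 point, 1041, is the cluster with 17.0%.

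The number of stromal cells in which a transcript was caught gave the same order. After each cell was thinned to 4000 UMIs, a Chac1 UMI was found in 0.628% of control (0.204 to 1.46) and 5.05% of IL-1β stromal cells (3.26 to 7.42). For Trib3 the shares were 2.51% (1.54 to 3.85) and 9.05% (6.63 to 12.0). For Hspa5 they were 71.1% (67.8 to 74.2) and 86.1% (82.7 to 89.1). Without thinning, at median depths of 15723.5 and 14849 UMIs, the shares were 3.14% and 14.9% for Chac1, 8.29% and 25.5% for Trib3 and 93.6% and 97.7% for Hspa5. No class in these organoids is known to lack the genes, so a background share could not be set. The thinned Chac1 share in AT2-lineage cells was 1.48% in control and 1.12% in IL-1β cells.

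Quality measures of the 2 stromal groups differed beside these genes. Mitochondrial UMIs made up 5.40% of control and 7.01% of IL-1β stromal UMIs. The summed level of the 12 AT2 markers, RNA of other cells in a stromal class, was 4980 and 6421 CPM. The 14 genes known to respond to tissue dissociation and heat shock included 7 counted as lower and 0 as higher, against 27.3% and 6.15% of all stromal genes. After division by the median ratio of all genes the counts were 4 and 1, against 12.6% and 12.1%. In AT2-lineage cells the same 14 genes included 7 counted as higher and 0 as lower, against 14.8% and 6.99% of all genes. They were led by Hspa1a, at 5.17 and 38.5 CPM. Hspa1b, with 29 and 121 UMIs, reached the minimum only through the IL-1β library. After that division 5 were higher and 1 lower, against 11.8% and 9.53%. The part of these quality measures in the members' levels was not tested.

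The wider pathway was described with 6 further lists. They were chosen with earlier results of these data known, so their counts beside the shares of all genes are descriptions only. For comparison, 14.8% of all genes were higher and 6.99% lower in AT2-lineage cells, and 6.15% and 27.3% in stromal cells. Of 14 ER chaperones and folding enzymes, none was higher and 1 lower in AT2-lineage cells (Hyou1, an ER nucleotide exchange factor, at 0.574 times its control level), with a list median log2 ratio of -0.13. In stromal cells 1 of 13 was higher, the protein disulfide isomerase Pdia6, at 192 and 329 CPM (1.72 times, 1.63 to 1.81), and the list median was 0.19. Of 12 ER-associated degradation genes with enough UMIs, 0 were higher and 1 lower in AT2-lineage cells (Vimp, also called selenoprotein S, at 261 and 161), and none passed in either direction in stromal cells. After division by the median ratio of all stromal genes, 4 of 13 chaperones and 2 of 12 degradation genes were higher and none of either list was lower, against 12.1% of all genes higher and 12.6% lower on that scale.

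Of the 28 listed ATF4 and CHOP targets, 27 were counted in AT2-lineage cells, of which 12 were higher and 1 was lower, with a list median log2 ratio of 0.57, against 14.8% of all genes higher and 6.99% lower. Slc7a11, the cystine transporter that supplies glutathione synthesis, was at 19.2 and 61.1 CPM (3.19 times, 2.79 to 3.65). Gdf15, a secreted stress cytokine, was at 10.4 and 28.2 (2.71 times, 2.25 to 3.27), and Stc2, a secreted glycoprotein, at 1.00 and 4.14 from 14 and 89 UMIs. Stc2 reached the minimum only through the IL-1β library, and the other 11 higher targets would have reached it at their control level in both libraries. Cth, the cystathionine lyase that makes cysteine, was the target counted as lower, at 13.2 and 3.96. These targets were higher while Atf4, Ddit3, Trib3 and Chac1 transcripts were within 1.5-fold of control in the same cells. Divided by the median ratio of all genes, 11 of 27 were higher and 1 lower, against 11.8% and 9.53% of all genes on that scale.

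In stromal cells 13 of 27 targets were higher and 1 lower, with a list median of 0.54, against 6.15% of all genes higher and 27.3% lower. Atf3, with 41 and 86 UMIs, reached the minimum only through the IL-1β library, and the other 12 would have reached it at their control level. After division by the median ratio of all genes 21 were higher and 1 lower, against 12.1% and 12.6% of all genes. Slc7a11 was at 17.3 and 107 CPM (6.19 times, 5.37 to 7.17). Ero1l, the oxidase that recharges disulfide isomerases, was at 50.2 and 272 (5.41 times, 4.97 to 5.90), and Vldlr, a lipoprotein receptor, at 17.9 and 50.8 (2.84 times, 2.43 to 3.33). Ero1l, Vldlr and Stc2 are also known as genes induced by low oxygen. Sesn2, a stress-induced inhibitor of mTORC1, was the target counted as lower, at 31.5 and 14.7. Without the clusters above 10% mitochondrial UMIs, 13 of 26 targets were higher and 1 lower, against 4.93% and 32.4% of all genes.

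In clusters 4 and 6 the targets were divided, with 7 of 21 higher and 3 lower, against 9.74% of all genes higher and 8.38% lower. In DATP-like cells, beside 14 control cells, 2 of 13 were higher and 8 lower, with a list median of -0.99. Of all genes counted there, 19.4% were higher and 27.5% lower. Vldlr, higher with 3 control and 99 IL-1β UMIs, reached the minimum only through the IL-1β library. Mthfd2, lower with 30 and 81 UMIs, would not have reached it at its IL-1β level. In clusters 4 and 6 Ero1l was at 27.4 and 139 CPM, the stress-induced chromatin protein Nupr1 at 468 and 1224, and Gdf15 at 6.46 and 19.4 from 25 and 112 UMIs, so that it reached the minimum only through the IL-1β library. The 3 lower were Vldlr at 0.464 times its control level, the serine synthesis enzyme Psat1 at 36.5 and 16.8, and Ppp1r15a, the phosphatase subunit that reverses eIF2α phosphorylation, at 61.3 and 40.3. Of the 12 aminoacyl-tRNA synthetases, a further ATF4-responsive group, 1 was higher in AT2-lineage cells (Cars, at 11.2 and 18.2) and 0 in stromal cells, with list medians of 0.22 and 0.30. Of all genes, 14.8% and 6.15% were higher in these 2 classes. Without surfactant, mitochondrial and ribosomal protein genes, 0 of the 12 were higher in AT2-lineage cells. Divided by the median ratio of all genes, 7 of 12 were higher in stromal cells, against 12.1% of all genes. Among the sensors and regulators, none of 14 was higher in either class, while 1 was lower in AT2-lineage cells and 3 in stromal cells. Of all genes, 6.99% and 27.3% were lower in these 2 classes. Creb3l2, an ER-bound transcription factor, was lower in AT2-lineage cells (26.3 and 14.0) and in stromal cells (54.0 and 33.2), where the eIF2α kinases Eif2ak2 (31.9 and 12.8) and Eif2ak1 (17.6 and 9.94) were lower too. Scaling to the stromal median left 1 of these 14 lower and 1 higher, against 12.6% and 12.1% of all genes.

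**Figure D4:**
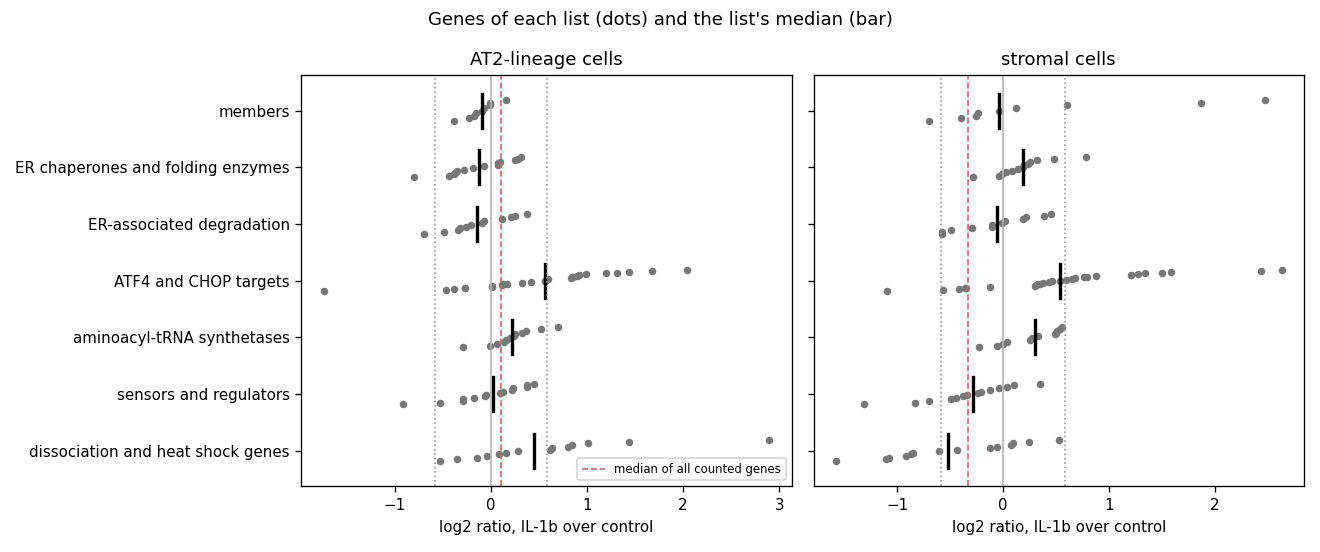
log2 ratio of the IL-1β over the control library for each gene of the members and of 6 pathway lists (dots) in AT2-lineage and stromal cells, with each list's median (black bar), the median of all counted genes (dashed) and 1.5-fold (dotted). The ATF4 and CHOP targets are spread to the right, with medians of 0.57 and 0.54, while the chaperone medians are -0.13 and 0.19.

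How the 9 genes varied together was described over 19 pairs of cluster and library with at least 30 cells, as Pearson correlations of log2(CPM + 10) among 10524 genes. These points share libraries and are split into epithelial and stromal cells, so the values are descriptions only. Atf4 and Ddit3 were the most alike pair of members (0.85), followed by Trib3 and Chac1 (0.67). Hspa5 was most like Prkcsh (0.89), Rpn2 (0.86) and Atp6v1h (0.85), where Prkcsh encodes a glucosidase II subunit and Rpn2 a subunit of the ER oligosaccharyltransferase. Its correlation with Atf4 was -0.08 and with Trib3 0.01. The genes most like Atf4 were Nme4 (0.93), Eef1g (0.92) and Bmyc (0.92), and those most like Trib3 were Rnf19b (0.80), Ctsz (0.77) and Gpx2 (0.76).

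Among single cells thinned to the same depth, Hspa5 went with the summed ER chaperones, with Spearman values of 0.27 and 0.25 in control and IL-1β AT2-lineage cells and 0.42 and 0.43 in stromal cells. With Ddit3, Atf4 and Trib3 its values lay between -0.14 and 0.11 in all classes described. Trib3 and Chac1 gave 0.29 in control and 0.06 in IL-1β stromal cells, and each was caught in few cells of either library. The control value rests on the fewer cells, with Chac1 caught in 0.628% of thinned control and 5.05% of thinned IL-1β stromal cells.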

How the data were processed

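The files hold whole-number UMI counts per gene and cell barcode, which the authors made and deposited for each library with Cell Ranger 2.0.2 and its mouse GRCm38 reference 1.2.0 (per the methods; the processing notes of the submitters name GRCm38, mm9 and Scanpy 1.3.6). The 2 libraries held 33965848 and 41220175 UMIs in 2101 and 3066 barcodes. The study's cell filter (over 500 and under 7000 genes, over 2000 UMIs) was applied to each barcode. Scrublet at the study's cutoffs marked 0.0583% of cells, under the 0.5% at which the caller is taken to have worked, so doublets may remain, and an alternative left out the highest 5% of scores.

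Cells of both libraries were clustered together (scanpy 1.11.5, Leiden at resolution 1.0, 50 components, 15 neighbours) on 1331 variable genes that excluded the 9 genes and the listed pathway genes, first into epithelial and stromal cells. Clusters were named by their mean marker score, and this rule was settled after the clusters had been seen. UMI sums gave Poisson intervals and ratios gave conditional binomial intervals (SciPy 1.17.1), without a test, as 1 library per condition allows none. Ratio and interval code was tested on simulated data, with 10276 genes run for AT2-lineage cells and 3847 for DATP-like cells. Of 50 genes set 2-fold lower and 50 set 2-fold higher, 98% and 100% were recovered for AT2-lineage cells. For DATP-like cells these shares, again of 50 genes each, were 88% and 90%.

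The 9 genes, the lists and their rules were chosen with earlier results of these data known. All 9 genes were named in each class, and up to 3 higher and 3 lower genes of each list, by the interval limit nearest to 1. Gene names came from the files. Promoter windows were matched by symbol (9 of 9) to RefSeq on GRCm38.p6. Alternatives were 16 fixed ones and 3 chosen after seeing the data, which left out a cluster or clusters.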

Additional observations from a re-analysis of the deposited data

Results flagged for a closer look

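Hspa5 had opposite signs in 2 classes under the same contrast, with a log2 ratio of -0.59 in DATP-like cells, from 14 control cells, and 0.60 in stromal cells. The difference between the classes was not tested, and each condition was 1 library. The DATP-like value changed sign under 2 alternatives, to 0.086 with Louvain clustering and 0.35 with genes centered by library. It was just past the 1.5-fold limit, at 0.663 times the control level, and passed it in the same direction in 1 of 12 alternatives.

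A further group of values came from epithelial cells of the IL-1β library that entered only the comparison of all epithelial cells together. The control library held 1 or none of them, so their levels were set against AT2-lineage cells of the same library. In epithelial cluster 9, 35 unnamed cells led by Ccl20 and Spib, Trib3 was at 80.4 CPM (59.0 to 107), 4.16 times the AT2-lineage level. In the 9 airway-like cells, Atf4 was 2.16 times, Xbp1 3.08 times, Trib3 3.03 times and Chac1 7.01 times the AT2-lineage level. The number of airway-like cells ran from 9 to 175 over the clustering settings. The Chac1 and Trib3 values of the airway-like cells rest on 5 and 13 UMIs. The differences were not tested.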

How the results depend on the processing

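Over all settings, 143 of the recomputed counts of members stayed within 1.5 times the reported count and 15 did not. In AT2-lineage cells, clustering the libraries separately gave 1 member higher (Trib3). In the AT1-scoring cells, the members counted as higher were 0 at resolution 2.0, with thinned cells and at a 2-fold limit, and those counted as lower were 1 with thinned cells and 0 at 2-fold. In DATP-like cells, the number higher was 0 without the highest 5% of doublet scores, with libraries clustered separately and with thinned cells, and the number lower was 0 after separate clustering and after centering genes by library. In stromal cells, thinned cells gave 1 higher, since Trib3 and Chac1 then had under 100 UMIs. The number lower there was 0 after division by the median ratio of all genes, at 2-fold, and without clusters above 10% mitochondrial UMIs (chosen after seeing the data). Leaving the 3 marked doublets in, which reran the clustering, moved IL-1β cells from 1789 to 1187 AT2-lineage, from 272 to 808 DATP-like and from 9 to 175 airway-like. Among members past 1.5-fold, signs reversed in DATP-like cells alone. There the log2 ratio of Hspa5 was 0.086 under Louvain clustering and 0.35 with centered genes, and that of Dnajb9 0.16 with centered genes. Both libraries' cells of this class changed in these settings. Control cells went from 14 to 24 (Louvain) or 89 (centered), and IL-1β cells from 272 to 960 or 1157. Signs of members inside 1.5-fold or under the minimum changed too, so that all sign changes came to 25 of 135 values in AT2-lineage cells (Atf4 reached 0.067 without the highest 5% of doublet scores), 21 of 108 in the AT1-scoring cells, 11 of 108 in DATP-like and 6 of 144 in stromal cells. For single members, 532 values moved by less than their interval and 86 by more. Trib3 and Chac1 in stromal cells had ratios above 1.5 in 16 of 16 alternatives, with log2 ratios from 1.63 to 2.20 and from 1.93 to 3.07. The Hspa5 ratio there was above 1.5 in 13 of 16, with 0.52 without the cell filter, 0.56 without surfactant, mitochondrial and ribosomal protein genes, and 0.33 without the clusters above 10% mitochondrial UMIs. Resolution 0.5, resolution 2.0 and centering did not act on the split into epithelial and stromal cells, so they could not change these stromal ratios. Louvain clustering, separate clustering, all variable genes and another random seed also gave 796 control and 475 IL-1β stromal cells. Louvain clustering and centering left the AT1-scoring class with too few IL-1β cells for a value. No paired analysis was possible because each condition has 1 library. Chac1 is limited by depth, with 31 control UMIs in stromal cells.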
